A study of Mus musculus with 4 samples.

Results

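The T cell receptor complex, its coreceptors and the proximal signalling genes were followed in the small intestine (SI) of irradiated mice through 10 genes: Cd3d, Cd3e, Cd3g and Cd247, Cd4, Cd8a and Cd8b1, and Lck, Zap70 and Cd5. The genes were taken by their symbols, and each matched 1 of the 56748 genes in the count table. The RNA came from whole SI collected on day 1 after 12 Gy total-body irradiation (TBI) from a Cs-137 γ-source, with 2 libraries from p53+/+ (wild-type) mice and 2 from p53-/- mice, numbered 7 and 8, and 9 and 10, in the table. The p53-/- mice lack functional Trp53 in every cell, epithelium and immune cells alike, because the deletion is in the germline. The study's methods describe adult mice matched for age and gender from the Jackson Laboratory. However, Xist, an RNA of female cells, had 588 counts in library 10 and 0 to 4 in the others. The libraries are therefore not taken as matched for sex. All 4 libraries are from irradiated mice, so each comparison below is between irradiated genotypes, and unirradiated SI was not analysed here. The labels do not say that the libraries of a genotype are separate animals, whereas the study's methods call its n biological replicates, so the p-values measure the spread between these libraries only. The question is whether the RNA of the T cell antigen receptor machinery differed between the genotypes at this time.

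A T cell recognises a peptide held by an MHC molecule through its receptor, a pair of variable chains (α with β, or γ with δ) that cannot signal alone. The signal passes through the CD3 γ, δ and ε chains and the ζ chain (Cd247), whose cytoplasmic tails carry tyrosine motifs called ITAMs. The coreceptors CD4 and CD8 bind MHC class II and class I and bring the kinase Lck to the complex, Lck phosphorylates the ITAMs, and Zap70 docks there and passes the signal on. In the SI, T cells lie in the lamina propria, in lymphoid follicles and between the epithelial cells, where many carry CD8 as an αα homodimer without the β chain.

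Totals ran from 15005479 to 22173164 counts per library. Chi-square values per degree of freedom (50.8 between libraries 7 and 8, 78.5 between 9 and 10) put the spread within a genotype above sampling noise. Phlda3, a p53 target gene, was at 1410 and 1416 counts in libraries 7 and 8 and at 44 and 31 in libraries 9 and 10, which goes with the labels. Trp53 itself was at 57.7 and 47.1 CPM (counts relative to the TMM-scaled library size) against 19.8 and 22.5 CPM, and reads from parts of the gene outside the deletion can still be counted. Library 10 stood apart from the other 3. Its B cell list summed to 592 CPM against 2.17 to 27.6 CPM in the others, Xist, an RNA of female cells, had 588 counts against 0 to 4, and an 18S ribosomal RNA gene took 4.59% of its counts against 0.296% to 0.863%. Library 8 carried more smooth muscle RNA, at 4490 CPM summed over that list against 481 to 995 CPM in the others. The part of these differences in the results below was not tested, and results are given with and without library 10.

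All 10 genes were higher in both p53-/- libraries than in either p53+/+ library, and 26.4% of the 16094 genes tested showed the same arrangement. Summed over the 10 genes, the level was 7.80 and 15.4 CPM in p53+/+ libraries and 75.5 and 142 CPM in p53-/- libraries, from 126 and 237 counts against 1722 and 2845. None of the 10 passed an adjusted p of 0.05 in the quasi-likelihood test of edgeR with the adjustment of Benjamini and Hochberg, a call made for 0.298% of genes as higher in p53-/- and 0.193% as lower. With the same test, 7 of 10 were under an adjusted p of 0.1 (1.48% of genes, higher) and 10 of 10 had an unadjusted p under 0.05 (10% of genes, higher). DESeq2 called all 10 at 0.05, and so did the likelihood ratio test of edgeR and its quasi-likelihood test when low counts were kept, where the share of all genes called higher was 5.11%, 5.18% and 5.15%. The fitted log2 fold changes had a median of 3.68 (p53-/- minus p53+/+) against -0.01 over all genes tested, and 3.83% of genes had a fitted value at or above that of the lowest of the 10. Only Cd3e, Cd4, Cd8a and Lck reached 10 counts in every library. Of the other 6, all except Cd3d met the filter on low counts only through the p53-/- libraries, which favours genes that are higher there. The counts and the median therefore describe these genes and support nothing further. In RNA from whole tissue, fewer T cells and less of these RNAs per T cell cannot be told apart.

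**Figure D1:**
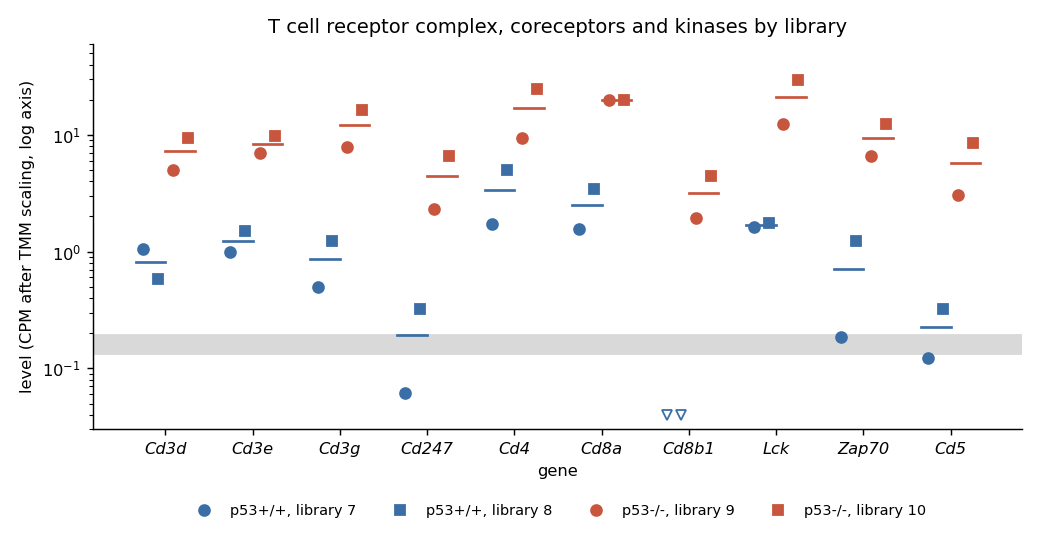
Level of each gene in the 4 libraries, in CPM after TMM scaling on a log axis, with blue for p53+/+ and red for p53-/-, circles for libraries 7 and 9 and squares for libraries 8 and 10; horizontal bars are the means of 2 libraries. The grey band is the level of 3 counts in the 4 libraries and open triangles mark 0 counts; every red point lies above both blue points of the same gene, with Cd8b1 at 0 in both p53+/+ libraries.

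The leave-one-out fits show how far the calls rest on single libraries. Without p53+/+ library 7, 7 of 10 passed 0.05 (1.87% of all genes, higher), and without p53+/+ library 8 all 10 did (3.98%). Without p53-/- library 9 only Lck passed (adjusted p = 0.0394; 0.452% of genes). Without p53-/- library 10 no gene at all passed (0.0%), with adjusted p from 0.398 for Lck to 0.819 for Cd4, while the fitted log2 fold changes of the 9 genes with counts in p53+/+ libraries were still between 1.53 (Cd4) and 3.79 (Cd5). With 1 library left in a genotype, that library is assumed to vary like the other genotype.

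**Figure D2:**
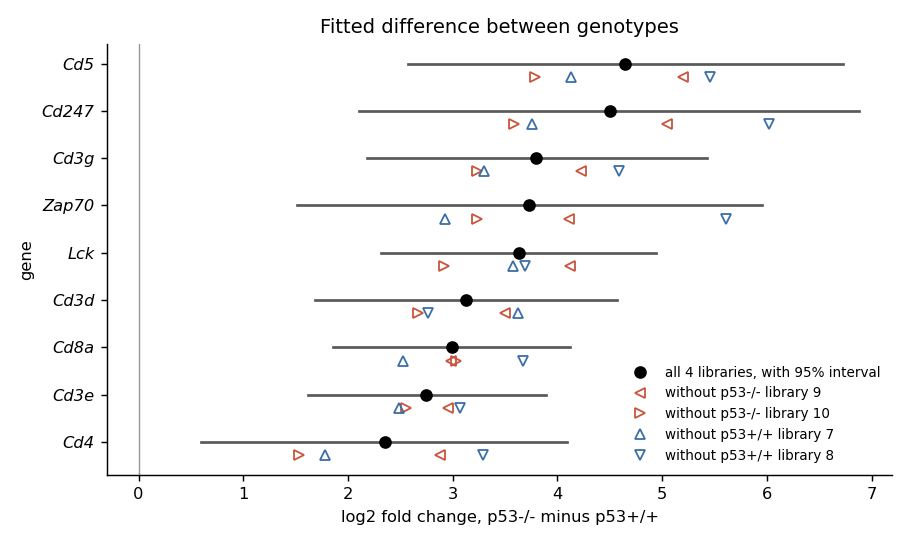
Fitted log2 fold change (p53-/- minus p53+/+, x axis) for the 9 genes with counts in the p53+/+ libraries; black points with lines are the fit to 4 libraries with its 95% interval, and open symbols are fits without 1 library. All intervals lie above 0, and the open symbols for the fit without library 10 sit lowest for 6 of the 9 genes.

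The 3 CD3 genes lie side by side on chromosome 9 in the order Cd3g, Cd3d, Cd3e, with Cd3g and Cd3d on opposite strands and their starts 1355 bases apart in the GENCODE M21 annotation. Because these genes and Cd247 encode the signalling chains and were higher together in the p53-/- libraries, the 250 bases before their starts are printed here from RefSeq (build GRCm38.p6), 5′ to 3′ on the strand of the gene. Capitals mark the letters AGGAAG, the core that ETS family factors read, and TGTGGT, the core that RUNX factors read, on either strand.

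Cd3g, chr9:44980432-44980681, minus strand: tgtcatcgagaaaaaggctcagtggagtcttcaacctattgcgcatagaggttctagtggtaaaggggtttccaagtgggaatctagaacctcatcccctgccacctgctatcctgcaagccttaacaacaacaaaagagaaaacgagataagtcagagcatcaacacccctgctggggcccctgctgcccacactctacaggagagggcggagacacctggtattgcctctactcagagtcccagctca
Cd3d, chr9:44981536-44981785, plus strand: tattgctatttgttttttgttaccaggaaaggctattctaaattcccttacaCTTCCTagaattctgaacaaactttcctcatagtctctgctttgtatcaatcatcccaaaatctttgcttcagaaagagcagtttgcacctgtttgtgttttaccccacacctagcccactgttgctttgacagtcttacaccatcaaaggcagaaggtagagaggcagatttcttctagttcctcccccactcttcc
Cd3e, chr9:45009612-45009861, minus strand: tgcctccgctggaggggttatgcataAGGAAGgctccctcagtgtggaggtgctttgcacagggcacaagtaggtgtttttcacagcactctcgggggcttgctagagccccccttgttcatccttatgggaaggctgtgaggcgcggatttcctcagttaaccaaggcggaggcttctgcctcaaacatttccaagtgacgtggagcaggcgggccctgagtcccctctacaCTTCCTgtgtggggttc
Cd247, chr1:165788431-165788680, plus strand: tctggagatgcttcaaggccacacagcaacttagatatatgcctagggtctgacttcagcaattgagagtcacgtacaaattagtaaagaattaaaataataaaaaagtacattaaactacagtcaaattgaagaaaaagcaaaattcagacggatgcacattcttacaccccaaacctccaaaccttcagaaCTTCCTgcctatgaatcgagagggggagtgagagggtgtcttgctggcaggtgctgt

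All motifs were searched on both strands. The table of promoters held 11 windows for 8 of the 10 genes and none for Cd4 and Cd8b1. An ETS core was found in 8 of the 11 windows and in 29.5% of all 32851 windows of this length, and a RUNX core in 2 of 11 and in 14.0% of all. The ETS and RUNX matches did not overlap each other in any of the 11. The E-box letters CANNTG were in 10 of 11 (66.2% of all), the GATA letters AGATAA in 1 of 11 (9.99% of all) and TATAAA in 0 of 11 (12.4% of all). The p53 half-site, searched by its consensus, matched in 2 of 11 windows, 1 each of Zap70 and Lck, and in 7.13% of all. Of the windows printed for the signalling chains, that of Cd3g holds neither core. A match is a run of letters and not a shown binding site.

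Cd3e (ENSMUSG00000032093) encodes the ε chain, which pairs with both the γ and the δ chain and is required for any receptor to reach the surface. Its counts were 16 and 23 in p53+/+ libraries against 161 and 196 in p53-/- libraries, or 0.990 and 1.49 CPM against 7.06 and 9.75 CPM. The p53-/- libraries were closer to each other for this gene than for any other of the 10 except Cd8a. Its log2 fold change was 2.75 (SE 0.453, 95% interval 1.62 to 3.89), with an adjusted p of 0.0804 from the quasi-likelihood test and 4.95e-05 from DESeq2. Its exons share 135 bases with an antisense gene that had 0 to 4 counts.

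Cd3d (ENSMUSG00000032094), the δ chain, had 17 and 9 counts against 115 and 189, or 1.05 and 0.584 CPM against 5.04 and 9.40 CPM. Among the 10 it alone was lower in library 8 than in library 7, by a ratio of 0.555 whose counting interval (0.218 to 1.32) includes 1. The log2 fold change was 3.13 (SE 0.573, 95% interval 1.69 to 4.57, adjusted p = 0.0972). Cd3g (ENSMUSG00000002033), the γ chain, had 8 and 19 counts against 180 and 329, or 0.495 and 1.23 CPM against 7.89 and 16.4 CPM. Library 10 was here well above library 9, and library 9 was itself above both p53+/+ libraries. The log2 fold change was 3.80 (SE 0.649, 95% interval 2.18 to 5.43, adjusted p = 0.0856).

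Cd247 (ENSMUSG00000005763), the ζ chain with most of the ITAMs of the complex, had the fewest counts of the 4 signalling chains. It had 1 and 5 counts against 53 and 133, or 0.0619 and 0.324 CPM against 2.32 and 6.62 CPM. The p53+/+ level rests on 6 counts in all, and the log2 fold change of 4.50 (SE 0.953, 95% interval 2.11 to 6.88, adjusted p = 0.113) is wide in proportion. Of its exon bases, 3007 are shared with Pou2f1 on the opposite strand, a transcription factor gene with 161 and 163 counts against 346 and 324. The strand setting of the counting is not given in the sources used here, so reads of the shared stretch could have been assigned to either gene or dropped, and Cd247 is uncertain.

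Within a library the signalling chains did not keep a fixed ratio. Cd3g counts per Cd3e count were 0.5 and 0.826 in p53+/+ libraries and 1.12 and 1.68 in p53-/- libraries. For Cd247 they were 0.0625 and 0.217 against 0.329 and 0.679, and for Cd3d 1.06 and 0.391 against 0.714 and 0.964. The first 2 ratios were higher in both p53-/- libraries and the third overlapped. With 8 to 23 counts of Cd3e and Cd3g in the p53+/+ libraries, these ratios are loose there and no test was made of them.

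Of the coreceptor genes, Cd8a was the most even between the p53-/- libraries, and Cd8b1 was not detected in p53+/+. Cd8a (ENSMUSG00000053977), the chain found in both the αα and the αβ form of CD8, had 25 and 53 counts against 453 and 398, or 1.55 and 3.44 CPM against 19.9 and 19.8 CPM. Libraries 9 and 10 were level for this gene, and the mean moved from 2.49 ± 1.34 to 19.8 ± 0.0405 CPM (SD, n = 2). For Cd8a the log2 fold change was 2.99 (SE 0.451, 95% interval 1.86 to 4.12), with an adjusted p of 0.0658 from the quasi-likelihood test and 3.52e-08 from DESeq2. Without library 10 it was 3.03, and without library 8 it was 3.67.

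The promoter window of Cd8a is printed to show a coreceptor beside the signalling chains. Like that of Cd3g, it holds neither core in these letters.

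Cd8a, chr6:71373177-71373426, plus strand, RefSeq GRCm38.p6: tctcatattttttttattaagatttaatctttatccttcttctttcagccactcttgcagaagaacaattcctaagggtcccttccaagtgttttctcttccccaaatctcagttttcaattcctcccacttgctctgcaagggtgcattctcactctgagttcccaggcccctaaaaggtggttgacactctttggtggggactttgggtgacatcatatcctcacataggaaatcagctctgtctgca

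Cd8b1 (ENSMUSG00000053044), the CD8 β chain, was at 0 counts in each p53+/+ library, against 44 and 90 in libraries 9 and 10, or 1.93 and 4.48 CPM. With 3 counts set for each p53+/+ library as the bound for a count of 0, the mean level was at least 16.8-fold higher in p53-/-. It was at least 10.1-fold higher with library 9 alone and at least 23.5-fold higher with library 10 alone. These bounds cover counting error only. The adjusted p was 0.0849 from the quasi-likelihood test and 0.000133 from DESeq2. How its difference compares with that of the other genes was not tested.

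Cd4 (ENSMUSG00000023274), the class II coreceptor, which some dendritic cells and macrophages also carry, had the smallest difference of the 10. It had 28 and 77 counts against 216 and 499, or 1.73 and 5.0 CPM against 9.47 and 24.8 CPM. Both genotypes were spread here, by a factor of 2.88 (counting interval 1.85 to 4.62) between libraries 8 and 7 and of 2.62 (2.23 to 3.09) between libraries 10 and 9. Library 9 was less than 2 times library 8. For Cd4 the log2 fold change was 2.35 (SE 0.696, 95% interval 0.60 to 4.09), with an adjusted p of 0.184 from the quasi-likelihood test and 0.00672 from DESeq2, and it was 1.53 without library 10 and 3.29 without library 8.

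Shares of counts within a library do not depend on the scaling between libraries. Cd8b1 was 0 of 25 and 0 of 53 counts of Cd8b1 plus Cd8a in the p53+/+ libraries (upper 95% Clopper-Pearson limits 13.7% and 6.72%). It was 8.85% (95% Clopper-Pearson interval 6.51 to 11.7) in library 9 and 18.4% (15.1 to 22.2) in library 10. The share in library 9 lies under the limit of library 7, so a difference from that library was not detectable at this depth. Both p53-/- shares were above the limit of library 8, but the interval of library 9 starts at 6.51% and overlaps that of library 8. Libraries 9 and 10 differed from each other by more than counting error. Intervals and limits cover counting error only, since duplicate reads are not independent molecules.

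Cd4 was 52.8% (38.6 to 66.7) and 59.2% (50.3 to 67.8) of Cd4 plus Cd8a counts in the p53+/+ libraries, 32.3% (28.8 to 36.0) in library 9 and 55.6% (52.3 to 58.9) in library 10. Library 9 was below the other 3, and library 10 was between the p53+/+ libraries, so the genotypes overlapped. Against Cd3e the pattern was similar, with Cd4 at 63.6% and 77.0% of Cd4 plus Cd3e counts in p53+/+ libraries and 57.3% and 71.8% in libraries 9 and 10. Cd8a was 61.0% and 69.7% of Cd8a plus Cd3e counts against 73.8% and 67.0%, again overlapping. With 2 libraries in each genotype, an exact permutation test (two-sided) of a share cannot fall below 0.333, so none was made.

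**Figure D3:**
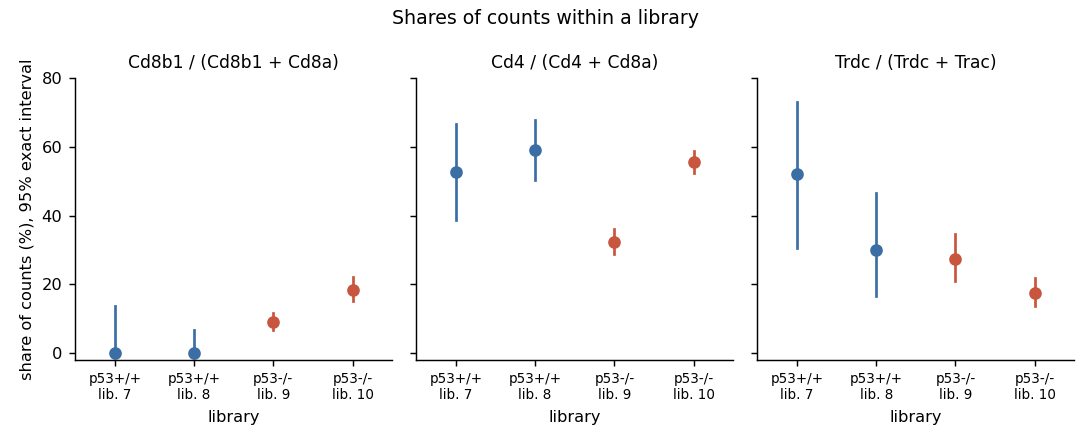
Share of counts within each library (y axis, percent) for Cd8b1 of Cd8b1 plus Cd8a, Cd4 of Cd4 plus Cd8a and Trdc of Trdc plus Trac; bars are 95% Clopper-Pearson intervals for counting error, blue for p53+/+ and red for p53-/-. Cd8b1 was at 0 in libraries 7 and 8, 8.85% in library 9 and 18.4% in library 10, while the Cd4 share of library 10 lies between those of the p53+/+ libraries.

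Lck (ENSMUSG00000000409), the kinase that coreceptors bring to the receptor, gave the smallest adjusted p of the 10. It had 26 and 27 counts against 281 and 593, or 1.61 and 1.75 CPM against 12.3 and 29.5 CPM. The p53+/+ libraries were close together, at 1.68 ± 0.101 CPM (SD, n = 2), and the p53-/- libraries were spread, at 20.9 ± 12.2 CPM. The log2 fold change was 3.63 (SE 0.522, 95% interval 2.32 to 4.94), with an adjusted p of 0.0602 from the quasi-likelihood test and 2.70e-09 from DESeq2. It was 2.92 without library 10 and 4.12 without library 9.

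Of the windows in the table, the upstream window of Lck is shown because it holds the most marked cores of the 11, with 3 ETS and 1 RUNX match.

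Lck, chr4:129573642-129573891, minus strand, RefSeq GRCm38.p6: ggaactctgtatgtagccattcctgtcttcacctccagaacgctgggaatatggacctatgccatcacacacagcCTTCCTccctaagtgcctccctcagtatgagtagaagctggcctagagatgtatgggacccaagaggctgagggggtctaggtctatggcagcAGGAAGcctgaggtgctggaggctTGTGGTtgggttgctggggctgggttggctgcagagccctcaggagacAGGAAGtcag

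Zap70 (ENSMUSG00000026117), the kinase that docks on phosphorylated ITAMs and that natural killer cells also use, had 3 and 19 counts against 149 and 248, or 0.186 and 1.23 CPM against 6.53 and 12.3 CPM. The p53+/+ libraries differed by a ratio of 6.64, with a counting interval from 1.95 to 35.0. The log2 fold change of 3.73 (SE 0.886, 95% interval 1.51 to 5.95, adjusted p = 0.135) moved to 5.61 without library 8 and 2.93 without library 7. Cd5 (ENSMUSG00000024669), a surface receptor that dampens receptor signals and is also found on B-1 cells, had 2 and 5 counts against 70 and 170, or 0.124 and 0.324 CPM against 3.07 and 8.46 CPM. Its log2 fold change of 4.65 (SE 0.828, 95% interval 2.57 to 6.73, adjusted p = 0.0921) was the largest of the 9 fitted values given here, and it rests on 7 p53+/+ counts.

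In the order of fitted log2 fold changes, Cd4, Cd3e, Cd8a, Cd3d, Lck, Zap70, Cd3g, Cd247 and Cd5, the 95% intervals of all neighbours overlapped, and all 9 intervals share the values from 2.57 to 3.89. These intervals come from the same 4 libraries and do not test differences between genes, which were not tested. Levels can be compared between genes only per length. Per kilobase of exon (union of exons in GENCODE M21, found for 10 of the 10), the p53-/- mean was highest for Lck at 7.14 CPM per kb, followed by Cd8a at 5.45, Cd4 at 4.25, Cd3d at 3.98 and Cd3g at 3.71 CPM per kb. Zap70 was at 3.15, Cd8b1 at 2.16, Cd3e at 2.06, Cd5 at 1.17 and Cd247 at 0.839 CPM per kb. The p53+/+ means had another order, led by Cd4 at 0.834 and Cd8a at 0.685 CPM per kb, with Lck at 0.574, Cd3d at 0.451, Cd3e at 0.304, Cd3g at 0.264 and Zap70 at 0.237. Cd5 at 0.0455, Cd247 at 0.0362 and Cd8b1 at 0 CPM per kb were lowest there. Over the libraries of a genotype, the ranges of neighbours overlapped for 8 of 9 pairs in each order. The exceptions were Cd3e above Cd5 in p53-/- and Cd247 above Cd8b1 in p53+/+.

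The p53-/- libraries differed from each other in a way that was uneven over the 10 genes. The ratio of library 10 to library 9 was 0.997 for Cd8a, with a counting interval from 0.869 to 1.14, and 1.38 (1.12 to 1.71) for Cd3e. It was 1.87 for Cd3d, 1.89 for Zap70, 2.07 for Cd3g, 2.32 for Cd8b1 and 2.40 for Lck. Cd4, Cd5 and Cd247 had the highest ratios, at 2.62, 2.76 and 2.85. Thus 9 of 10 were higher in library 10 beyond counting error and Cd8a was not. The median ratio over all genes tested was close to 1 (0.01 on the log2 scale). The share of all genes beyond counting error was not taken. The chi-square per degree of freedom between these libraries (78.5) is a value pooled over genes and does not give that share. Whether the count of 9 of 10 is particular to these genes was therefore not tested.

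The constant genes of the receptor chains showed the same unevenness. The ratio of library 10 to library 9 was 2.45 for Trac (α chain), 2.55 for Trbc1 and 2.07 for Trbc2 (β chain), against 1.37 for Trdc (δ chain) and 1.28, 1.22 and 1.10 for Trgc1, Trgc2 and Trgc4 (γ chain). The intervals of the δ and γ genes include 1 (for Trdc, 0.920 to 2.04). Among gut homing genes, chosen for naming after their values were seen, Itgae (the αE integrin that binds epithelial E-cadherin) was at 0.879 and Ccr9 (receptor for the SI chemokine CCL25) at 0.833. Other genes of that list were higher in library 10, with Itgb7 at 1.45, Itga4 at 2.35, Gpr18 at 4.06 and Cd69 at 5.98, and the list's median ratio was 1.45. Ccr7, a recirculation gene likewise named after its values were seen, was at 4.54. It guides lymphocytes into lymphoid tissue and is also made by B cells, whose list summed to 27.6 CPM in library 9 and 592 CPM in library 10, and the part of B cells in this ratio was not tested.

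**Figure D4:**
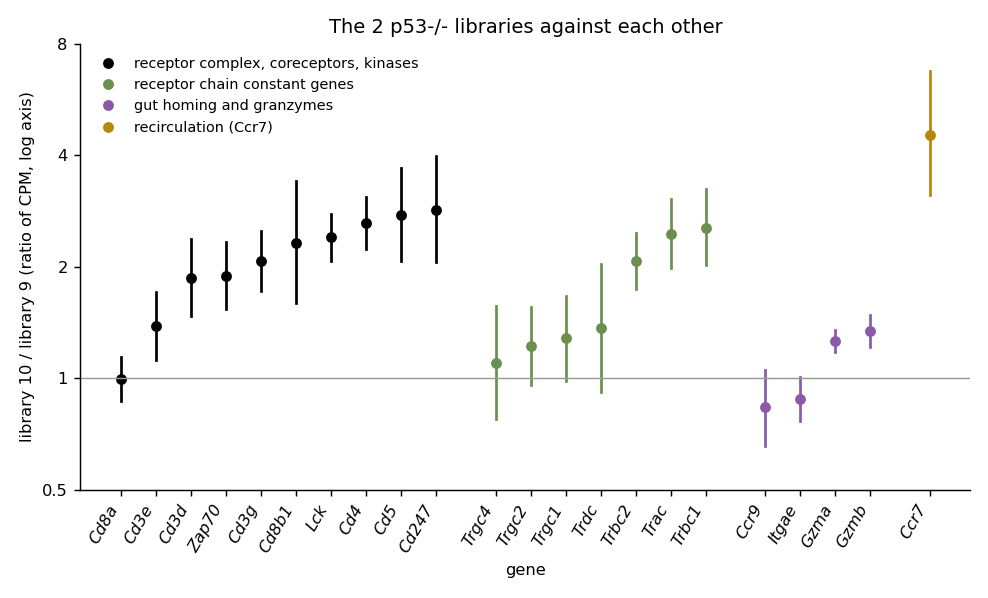
Ratio of library 10 to library 9 (both p53-/-, log y axis), with the 10 genes in black and receptor chain constant genes in green. Gzma, Gzmb, Itgae and Ccr9 of the gut homing list are in purple and Ccr7 of the recirculation list in gold. Itgae, Ccr9 and Ccr7 were picked after their values were seen. Other genes of these lists, such as Cd69 at 5.98 and Actn1 at 0.96, are not drawn. The median ratios of the lists were 1.45 and 3.31. Lines are 95% counting intervals. Cd8a sits at 0.997 and the γ and δ chain genes have intervals that include 1, while Cd247 reaches 2.85 and Ccr7 4.54.

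All 7 constant genes of the receptor chains were higher in both p53-/- libraries, with a median log2 fold change of 3.04 (3.01 without library 10). By the quasi-likelihood test 0 of 7 passed 0.05, 7 had an unadjusted p under 0.05, and DESeq2 called 6. Over all genes tested, 26.4% were higher in both p53-/- libraries and 10% had an unadjusted p under 0.05 as higher. DESeq2 called 5.11% as higher. Of the 16094 genes, 3922 were lower in both p53-/- libraries and 1275 had an unadjusted p under 0.05 as lower. DESeq2 called 565 genes as lower. These shares and counts are also the measure for the lists below. Trac had 11 and 28 counts against 130 and 281 (log2 fold change 2.97, adjusted p = 0.135), and Trbc2 had 17 and 13 against 201 and 367 (3.82, adjusted p = 0.0569). Trgc2 had 9 and 11 counts against 131 and 141 (3.31, adjusted p = 0.0587). Trdc had the smallest difference, from 12 and 12 to 49 and 59 counts (1.73, adjusted p = 0.181). Trdc was 52.2% (30.6 to 73.2) and 30.0% (16.6 to 46.5) of Trdc plus Trac counts in p53+/+ libraries and 27.4% (21 to 34.5) and 17.4% (13.5 to 21.8) in libraries 9 and 10. The p53-/- shares were lower than both p53+/+ shares, though the interval of library 8 includes both of them. Reads of Trbc1 and Trbc2, and of the γ constant genes, can be split between near-identical copies.

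The signalling genes downstream of the receptor were uneven. Of 20, 19 were tested, 0 passed by the quasi-likelihood test, 15 had an unadjusted p under 0.05 and DESeq2 called 11, with a median log2 fold change of 2.87 (2.31 without library 10). The genes with the most CPM, not scaled for length, were Nck1, Plcg1, Vav1 and Fyn. Nck1 is an adaptor present in most cells and was at 452 and 379 counts against 569 and 563 (log2 fold change 0.01), and Plcg1, the phospholipase of many receptors, was at 204 and 284 against 349 and 396 (0.17). Vav1, a leukocyte exchange factor, had 106 and 130 counts against 306 and 628 (1.57, adjusted p = 0.178), and Fyn, a Src family kinase, had 118 and 131 against 313 and 600 (1.46, adjusted p = 0.177). Lat, the scaffold that Zap70 phosphorylates, was picked for naming after its values were seen, and had 12 and 8 counts against 129 and 305 (4.03, adjusted p = 0.0802).

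Genes that restrain receptor signals had a smaller median, 0.74 over 10 tested (0.42 without library 10). Of these 0 passed by the quasi-likelihood test, 3 had an unadjusted p under 0.05 in the higher direction and 1 in the lower, and DESeq2 called 3 higher. The 4 highest in mean CPM were Dgkz and Dgka, which consume diacylglycerol, Csk, which holds Src family kinases off, and the phosphatase Ptpn6, with log2 fold changes of -0.48, -0.52, 0.41 and 0.89. Each of these had at least 421 counts in every library, including p53+/+. The 3 with an unadjusted p under 0.05 as higher were Ptpn22, Sla and Sla2, named after their values were seen. Their log2 fold changes were 2.24, 3.21 and 3.22. Of the 10, 8 had a positive log2 fold change and 2 a negative one, against 7929 and 8165 over all genes tested. The part of T cells in the levels of this list was not tested.

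Costimulatory and inhibitory receptors had a median of 3.25 over 13 tested of 16 (2.72 without library 10), with 0 called by the quasi-likelihood test, 11 at an unadjusted p under 0.05 and 9 called by DESeq2. Lag3, an inhibitory receptor of activated T cells, had 8 and 33 counts against 180 and 253 (log2 fold change 2.95, adjusted p = 0.146). Cd96, of T and natural killer cells, had 10 and 8 against 83 and 131 (3.14, adjusted p = 0.0913). Btla, which B cells also carry, had 0 and 13 counts against 41 and 468, and Slamf6 had 1 and 7 against 47 and 233, and library 10 was at 13.0 and 5.63 times library 9 for these genes.

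Gut homing and intraepithelial lymphocyte genes were the single pathway list with genes past the threshold. Of 13 tested, Gzma and Gzmb, the granzymes that cytotoxic lymphocytes release into target cells, rose. Gzma had 74 and 124 counts against 1505 and 1673 (log2 fold change 3.56, SE 0.320, adjusted p = 0.0296), and Gzmb had 43 and 72 against 689 and 811 (3.27, SE 0.363, adjusted p = 0.0453). The ratio of library 10 to library 9 was 1.26 for Gzma and 1.34 for Gzmb, lower than for 9 of the 10 receptor and coreceptor genes. Neither passed without library 10 (adjusted p = 0.306 and 0.359) or with scaling by library size only (0.0568 and 0.0675). Gzmb also did not pass without library 9 (0.0655), with upper-quartile factors (0.063) or where every sample needed 10 counts (0.0583). Over all alternatives the log2 fold changes of both stayed between 2.92 and 4.02. The list's median was 2.86 (2.72 without library 10), and DESeq2 called 10 of it. Natural killer cells also carry granzymes, and their list summed to 0.433 and 0.649 CPM in p53+/+ libraries and 2.54 and 3.33 CPM in p53-/- libraries.

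T lineage transcription factors had a median of 1.68 over 10 tested of 12 (1.00 without library 10), with 0 called by the quasi-likelihood test, 5 at an unadjusted p under 0.05 and 5 called by DESeq2. Zbtb7b and Bcl11b, which T cells use for CD4 lineage choice and T cell identity, were abundant in all 4 libraries and had log2 fold changes of -0.48 and 0.06. Zbtb7b was at 468 and 400 CPM against 338 and 285 CPM. Ikzf3, which B and plasma cells also express, had 10 and 17 counts against 258 and 1032 (5.18, adjusted p = 0.0849).

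Cytokine receptors of T cells had a median of 2.61 over 9 tested of 10 (2.11 without library 10), with 0 called by the quasi-likelihood test, 5 at an unadjusted p under 0.05 in the higher direction and 1 in the lower, and 3 called higher and 1 lower by DESeq2. Il2rb, the IL-2 and IL-15 receptor β chain, had 32 and 43 counts against 262 and 354 (2.61, adjusted p = 0.0707), and Il2rg, the common γ chain, had 11 and 33 against 143 and 518 (3.5, adjusted p = 0.148). Ifngr1, found on most cells, was in the other direction at 341 and 317 CPM against 219 and 198 CPM (-0.66, adjusted p = 0.171). Il21r, found on T and B cells, had 1 and 17 counts against 79 and 589 (4.81, adjusted p = 0.187).

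Recirculation genes of naive and central T cells had a median of 2.09 over 7 tested of 8, and 0.75 without library 10. By the quasi-likelihood test 0 passed, 3 had an unadjusted p under 0.05 and DESeq2 called 3. Actn1 and Igfbp4, which stromal cells express too, had log2 fold changes of -0.16 and 0.29. Klf2 had 62 and 155 counts against 169 and 493 (1.2, adjusted p = 0.455) and S1pr1, the receptor that lets lymphocytes leave tissues, had 20 and 82 against 123 and 452 (2.09, adjusted p = 0.322). In CPM, library 9 was near library 8 for both (7.41 and 10.1 for Klf2, 5.39 and 5.32 for S1pr1), and library 10 was above, at 24.5 and 22.5.

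**Figure D5:**
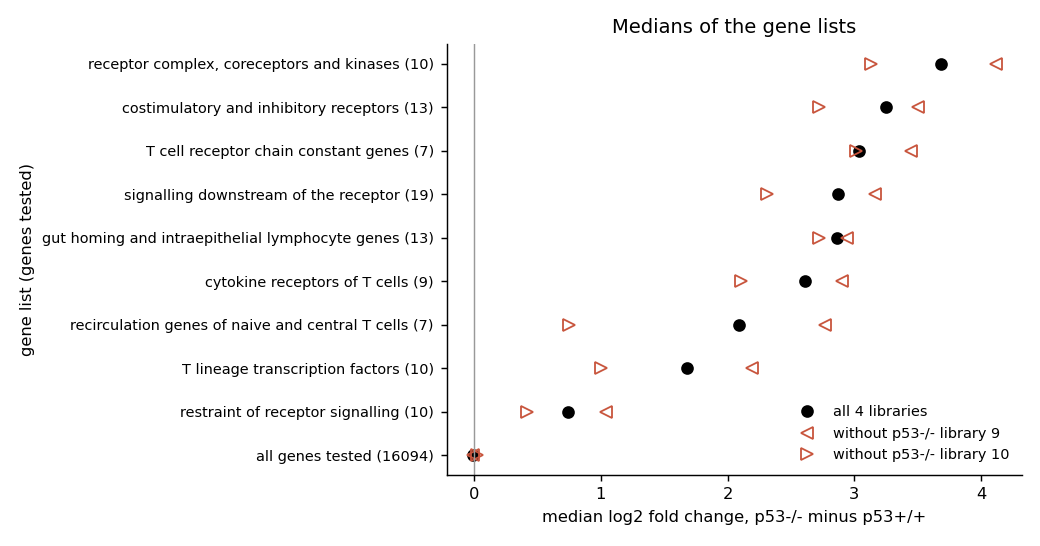
Median log2 fold change (x axis, p53-/- minus p53+/+) of each gene list, with the number of genes tested, over all 4 libraries (black) and without library 9 or library 10 (red). The 10 genes lie at 3.68 and all genes tested at -0.01; leaving out library 10 takes the recirculation list from 2.09 to 0.75 and the gut homing list from 2.86 to 2.72.

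Markers of other cells moved with genotype as well. The pan-leukocyte list (Ptprc, Coro1a, Laptm5, Cd52 and others) summed to 23.9 and 62.4 CPM in p53+/+ libraries and 156 and 725 CPM in p53-/- libraries. Of its genes, 6 of 6 were higher in both p53-/- libraries, as were 26.4% of all genes tested. The summed level of the 10 genes was 0.326 and 0.247 of that list in p53+/+ libraries and 0.484 and 0.196 of it in libraries 9 and 10, so the genotypes overlapped in this ratio. The B cell list summed to 2.17 and 3.05 CPM against 27.6 and 592 CPM. The macrophage and monocyte list summed to 82.1 and 190 CPM against 245 and 333 CPM, with 9 of 11 genes higher in both p53-/- libraries, and the dendritic cell list to 4.08 and 15.4 CPM against 31.7 and 54.0 CPM, with 8 of 8. Against the macrophage list, the 10 genes stood at 0.0950 and 0.0811 in p53+/+ libraries and 0.308 and 0.426 in p53-/- libraries, which did not overlap. Against the B cell list the order was the other way, also without overlap, at 3.59 and 5.05 in libraries 7 and 8 and 2.74 and 0.24 in libraries 9 and 10.

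Of the immature T cell list, Rag1 was at 0 to 1, Rag2 at 0, Ptcra at 0 to 1 and Dntt at 0 to 8 counts. The whole list summed to 0.681 and 1.75 CPM against 3.07 and 5.22 CPM. Its 2 tested genes, Cd1d1 and Themis, were higher in both p53-/- libraries, with 3 and 0 counts against 25 and 40 for Themis. Themis is also in the list of signalling genes downstream of the receptor, so its counts do not tell immature from other T cells. The natural killer gene Ncr1 had 0 and 0 counts against 7 and 11. Epithelial markers summed to 31000 and 22600 CPM against 24100 and 22700 CPM, which overlapped, with 7 of 12 genes lower and 3 higher in both p53-/- libraries and a median log2 fold change of -0.37. Over all 16094 genes tested, 3922 were lower and 4245 higher in both p53-/- libraries. The follicle epithelium and lymphoid stroma list summed to 149 and 153 CPM against 175 and 407 CPM, and red blood cell genes to 0.805 and 1.49 CPM against 2.28 and 6.22 CPM. The plasma cell list summed to 728 and 701 CPM against 1700 and 2110 CPM, and 1 of its 7 genes, Derl3, passed the threshold (adjusted p = 0.0424). Named for their size, Sdc1 (414 and 308 CPM) and Xbp1 (274 and 218 CPM) made up most of the p53+/+ sums. Jchain, at 37.0 and 169 CPM there, led the p53-/- sums at 1036 and 1426 CPM. Sdc1 was lower in both p53-/- libraries, and the other 6 genes of the list were higher in both. The adipocyte list went the other way, from 37.6 and 63.3 CPM to 4.12 and 6.07 CPM, and Cfd and Car3 in it passed as lower (adjusted p = 0.0296 and 0.0279). Innate lymphoid genes summed to 88.7 and 251 CPM against 49.1 and 54.6 CPM, a sum led in p53+/+ by Areg (1085 and 3131 counts against 163 and 234, adjusted p = 0.074), and 6 of the 8 were tested, with a median of -0.02 on the log2 scale. The part of these other cells in the levels of Lck, Zap70, Cd247, Cd4, Cd8a and Cd5, which some of them share with T cells, was not tested.

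Outside all lists, the genes whose levels ran most like the mean of the 10 over the 4 libraries were found by the root mean square difference of centred log2(CPM + 1) profiles among 13037 candidates. They were Igkv3-4, an immunoglobulin κ variable segment (0.0243), AI504432, a long non-coding RNA (0.0276), Traf3ip3 (0.106), Rinl (0.114) and Arhgap4 (0.130). Igkv3-4 had 0 and 4 counts against 74 and 136, and AI504432 had 5 and 11 against 105 and 180. Traf3ip3 had 6 and 16 counts against 112 and 239. The 10 genes themselves lay at 0.133 (Cd5) to 0.369 (Cd8a) from their own mean, so Cd8a was the least like the others. With 4 libraries, a likeness of this kind describes these libraries only.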

How the data were processed

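The SI of p53+/+ and p53-/- mice was sequenced after poly(A) selection, with 2 libraries each. The values deposited by the authors are counts, the unnormalized number of reads on each gene. The submitters' processing notes name fastp, HISAT2 2.0.5, featureCounts 1.5.0-p3 and DESeq2 1.20.0. The genome build and the strand setting of the counting are not given in the sources used here, so reads of overlapping genes and near-identical copies could have been split. Columns carry a genotype and a library number but not the replicate of the labels.

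Libraries were scaled by TMM, low genes removed by filterByExpr, and 16094 of 56748 genes tested with the quasi-likelihood test, two-sided, in edgeR 4.0.16 (R 4.3.3) with Benjamini-Hochberg adjustment over all genes tested at 0.05. The 95% intervals of fold changes came from the same fit. Levels are CPM on this scale, from totals of 15005479 to 22173164 counts per library. A genotype at or under 3 counts in both libraries was given a bound with 3 counts set in each. Shares have exact 95% Clopper-Pearson intervals (scipy 1.17.1), and ratios of 2 libraries an interval conditional on the sum of the counts. The fit was tested on simulated data.

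The 10 genes and the 8 pathway and 13 marker lists were chosen with earlier results of these data known. Named from a list were the genes past the threshold, otherwise at most 4 with the highest mean CPM, defining genes where their level touches a result, and 5 genes like the mean profile among those whose average log2 CPM was 1 or more. Genes named outside this rule are said to be so. Some genes that the rule names are not reported here. Lengths came from GENCODE M21, which holds 91.8% of the gene identifiers. Promoters came from RefSeq (GRCm38.p6), read in the 250 bases before the start. Alternatives were other scaling factors, DESeq2 1.42.0, the likelihood ratio test, other filters, leaving out immunoglobulin and receptor segments, an adjusted p of 0.1, and each library left out in turn.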

Additional observations from a re-analysis of the deposited data

How the results depend on the processing

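All fitted log2 fold changes of the 10 genes kept their direction in 114 values over 12 alternatives. Of these values, 66 stayed on the same side of 0.05 and 48 came past it. No call could be lost, since 0 of the 10 passed with all 4 libraries. The number of the 10 past the threshold was 0 with all 4 libraries, 10 each under DESeq2, the likelihood ratio test and no filter, 7 at an adjusted p of 0.1, and 0 to 10 with 1 library left out (7, 10, 1 and 0 without libraries 7, 8, 9 and 10). Over all genes, 48 higher and 31 lower became 26 and 20 when scaled by library size only, 29 and 20 by upper-quartile factors, 816 and 565 under DESeq2, 833 and 462 under the likelihood ratio test, 1433 and 761 without a filter, 24 and 18 when every sample needed 10 counts, and 238 and 134 at an adjusted p of 0.1, with 0 to 680 higher and 0 to 344 lower with 1 library left out. Of the list genes, 2 were higher, against 0 when scaled by library size only, 1 by upper-quartile factors, 49 under DESeq2, 49 under the likelihood ratio test, 64 without a filter, 1 when every sample needed 10 counts, 18 at an adjusted p of 0.1, and 0 to 32 with 1 library left out. Where every sample needed 10 counts, only 4 of the 10 genes were tested, of which 4 did not overlap, and their median was 2.93. The median of 3.68 ran from 3.13 to 4.14 with 1 library left out. The Cd8b1 share differed by 13.6 percentage points against Cd8a and 26.5 against Cd3e. Apart from the settings that test fewer genes or samples, the cause was not tested. The median log2 fold change over all genes shifted by at most 0.066 between scalings.

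No paired analysis was possible because the columns carry the genotype and a library number but not the replicate of the labels. Depth limits the p53+/+ values most, where 6 of the 10 genes had under 10 counts in at least 1 library, and Cd8b1 is known only as a bound.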
